A study of Mus musculus with 12 samples.

Results

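Eph receptors and ephrins are cell surface proteins through which neighbouring cells signal to each other. The 10 genes described here are the class A receptors Epha2, Epha3, Epha4 and Epha7, the class B receptors Ephb2, Ephb3 and Ephb4, the class A ephrin Efna5 and the class B ephrins Efnb1 and Efnb2. They were taken from a list of gene symbols, matched to the Ensembl gene IDs of the count files, and all 10 were found among 37991 gene IDs. All 10 also passed the filter on low counts. RNA-seq had been done on primary mouse embryonic fibroblasts (MEFs), the cells that grow out of minced embryos, of FVB mice. Wild-type (WT) MEFs were compared with MEFs of E2f1 3KR knock-in mice, in which the 3 lysines of the transcription factor E2F1 that become acetylated are replaced with arginine on both alleles. MEFs of both genotypes came from embryos of day 13.5 and were seeded at passage 3. They were left untreated or treated with 250 ng/ml neocarzinostatin (NCS), a drug that breaks DNA, for 3 h, which gave 4 groups of 3 samples each and 12 samples in all. The comparisons addressed how the knock-in changed gene expression before and after DNA damage. All groups were cultured at reduced oxygen, and neither the number of embryos behind the samples nor their sex is stated in the labels, so p-values measure the spread between these samples, which may be technical.

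The Eph receptors form the largest family of receptor tyrosine kinases. Class A receptors mostly bind ephrins that are held in the membrane by a lipid anchor (class A), and class B receptors mostly bind ephrins that span the membrane (class B), with some binding across the classes, as for Epha4. Because both partners sit in membranes, binding needs cell contact, and signals run into the receptor cell and, in reverse, into the ephrin cell. The receptors act on small GTPases and the cytoskeleton, and the family is known for repulsion between cells, for borders between tissues, for axon guidance and for the separation of arteries and veins, and in fibroblasts for contact repulsion and cell sorting.

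Counted reads totalled 33203757 to 45279321 in a sample, so that the member with the fewest counts, Efna5, still had 250.2 normalized counts or more in every sample (raw counts scaled by DESeq2's size factors). All 12 fibroblast markers checked were present, with summed levels of 60990 to 65890 CPM (counts scaled to a library of 1e6) in WT and 65730 to 68310 CPM in 3KR samples. All 12 were called between untreated genotypes, 10 higher in 3KR MEFs and 2, Vim and Fn1, lower. In that comparison 45.7% of all genes tested were called, 22.1% higher and 23.6% lower. This share also stands beside the counts of other markers below. The most abundant, Col1a1, was at 1.23 times the WT level, Pdgfra at 3.17 times and Fn1 at 0.783 times. Epithelial markers summed to at most 3.30 CPM. E2f1 itself had 1042 to 1296 normalized counts in all samples, which does not check the genotype because the knock-in changes codons and not the level. Several other features of the samples moved with genotype. Xist, the RNA of the inactive X chromosome, had 30590 to 35630 normalized counts in 3KR samples and 32.3 to 62.5 in WT samples, while the Y-linked gene Ddx3y had 7 to 16.2 in 3KR and 5370 to 5822 in WT samples, so sex and genotype cannot be told apart. Schwann and neural crest markers summed to 278 to 297 CPM in WT and 82.3 to 85.3 CPM in 3KR samples, with 8 of 11 tested markers lower in untreated 3KR MEFs and Pou3f1 at 0 in every sample. Macrophage markers summed to 93.6 to 117 CPM in WT and 169 to 188 CPM in 3KR samples, with 8 of 8 higher in untreated 3KR MEFs. Neuron markers summed to 82.1 to 104.6 CPM in WT and 38.4 to 46.9 CPM in 3KR samples, nearly all from Stmn2 and Gap43, with at most 1 count of Rbfox3 in any sample. Skeletal muscle markers, mostly Des, summed to 136 to 143 CPM in WT and 51.5 to 58.1 CPM in 3KR samples, with at most 9 counts of Myod1. Endothelial markers summed to 9.76 to 10.7 CPM in WT and 17.5 to 30.5 CPM in 3KR samples, with at most 9 counts of Pecam1. Their sum moved with Erg, at 4.13 to 4.24 CPM on average in the WT groups and 13.1 to 23.8 CPM in the 3KR groups. Of 5 tested in untreated MEFs, Erg was higher in 3KR, Emcn was lower (1.32 CPM in WT and 0.241 CPM in 3KR) and 3 were not called. The part of these cells and of sex in the values below was not tested. In bulk RNA, fewer cells of a type and less RNA per cell cannot be told apart. WT replicate 3 stood apart from the other WT replicates in both treatments (chi-square per gene 7.34 to 9.14, against at most 2.29 for every pair without it), so the members were also fitted without both of its libraries.

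Promoter windows of 300 bases, from 250 before to 50 after a gene's start, were read from RefSeq (GRCm38.p6) for the 10 members, 11 windows in all because Epha7 has 2. Shown are the windows of the 4 members whose group means spanned at least 1 on the log2 CPM scale, written 5′ to 3′ with GC boxes (GGGCGG on either strand) in capitals. The Epha2 window is chr4:141300971-141301270 on the plus strand, the first Epha7 window chr4:28812881-28813180 on the plus strand, the Ephb2 window chr4:136835963-136836262 on the minus strand and the Ephb3 window chr16:21204545-21204844 on the plus strand.
Epha2: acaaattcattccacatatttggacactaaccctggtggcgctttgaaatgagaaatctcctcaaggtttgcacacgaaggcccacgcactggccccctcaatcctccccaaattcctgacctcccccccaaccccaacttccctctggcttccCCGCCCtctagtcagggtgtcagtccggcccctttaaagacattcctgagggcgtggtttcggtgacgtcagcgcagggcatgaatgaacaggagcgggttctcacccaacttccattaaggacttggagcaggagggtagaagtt
Epha7: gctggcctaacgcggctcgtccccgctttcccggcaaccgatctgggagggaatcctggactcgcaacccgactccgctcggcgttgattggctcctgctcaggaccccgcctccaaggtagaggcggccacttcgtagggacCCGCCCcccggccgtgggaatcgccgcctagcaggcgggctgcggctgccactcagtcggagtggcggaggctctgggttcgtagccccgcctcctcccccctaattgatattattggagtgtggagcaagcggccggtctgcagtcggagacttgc
Ephb2: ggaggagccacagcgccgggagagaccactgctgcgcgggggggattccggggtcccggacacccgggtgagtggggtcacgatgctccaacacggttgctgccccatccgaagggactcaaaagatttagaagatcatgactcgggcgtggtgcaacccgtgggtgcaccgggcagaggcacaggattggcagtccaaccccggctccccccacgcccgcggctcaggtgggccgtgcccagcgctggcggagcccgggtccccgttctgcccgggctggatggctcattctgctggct
Ephb3: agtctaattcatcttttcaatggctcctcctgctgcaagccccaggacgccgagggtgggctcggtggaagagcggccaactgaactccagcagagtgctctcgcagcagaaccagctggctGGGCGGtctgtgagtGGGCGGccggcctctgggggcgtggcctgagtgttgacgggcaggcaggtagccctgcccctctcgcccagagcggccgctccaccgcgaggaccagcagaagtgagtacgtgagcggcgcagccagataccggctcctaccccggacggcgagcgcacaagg
The Epha2 window held 1 GC box and 10 CpG dinucleotides and was 54.7% G or C, the lowest share of the members. The Ephb2 window held no GC box in its 300 bases, with 24 CpG and 68.7% G or C, and the Ephb3 window held 2 GC boxes, with 23 CpG and 66.7%. Over the 11 windows the median was 66.3% G or C and 23 CpG, against 52.7% and 7 over all 32851 windows of the table, and 8 of the 11 held a GC box, as did 35.7% of all windows. The E2F octamers TTTCCCGC, TTTCGCGC, TTTGCCGC and TTTGGCGC, searched on both strands because E2F1 carries the mutation, were in none of the 11 windows and in 2.27% of all windows. The p53 half-site, searched because NCS breaks DNA, was also in none of the 11 and in 8.36% of all. An octamer and a GC box can share bases, which did not arise in these windows. These matches describe letters in short windows only.

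Levels of different genes were compared as reads per kilobase of exon per 1e6 reads (RPKM), with exon lengths from GENCODE M21. By RPKM, Efnb1 was the most abundant gene of the family in every group, at 20.7 ± 0.864 RPKM (SD, n = 3) in untreated WT and 20.6 ± 0.327 RPKM in untreated 3KR MEFs. This order depends on the division by length. In untreated WT MEFs Efnb1 had 2726 normalized counts on average, and Epha3 and Efnb2 had 4373 each. In untreated 3KR MEFs Efnb1 had 2722 and Ephb2 5640. By RPKM in untreated WT MEFs, Efnb1 was followed by Efnb2 at 16.7 ± 0.996 RPKM and Epha2 at 15 ± 1.15 RPKM, whose samples overlapped. Ephb4 at 13.6 ± 0.217 and Epha3 at 13.2 ± 0.0469 RPKM came next. Ephb2, Ephb3, Epha4, Epha7 and Efna5 were lower, from 5.71 ± 0.281 RPKM for Ephb2 to 1.71 ± 0.119 RPKM for Efna5. In untreated 3KR MEFs the order of the RPKM levels was different: Ephb4 stood next to Efnb1 at 17.6 ± 0.239 RPKM, Ephb2 (11.7 ± 0.125 RPKM) and Epha3 (11.5 ± 0.147 RPKM) overlapped, and Epha2 came after them at 9.39 ± 0.107 RPKM. Efna5 and Epha7 were the lowest members there, at 1.66 ± 0.0208 and 1.58 ± 0.0202 RPKM. By mean RPKM over all samples, Efnb1 was at the 86th percentile of all genes tested, Epha2, Ephb4 and Efnb2 at the 78.8th, 78.6th and 78th, and Epha7 and Efna5 at the 34.3rd and 33.8th.

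**Figure D1:**
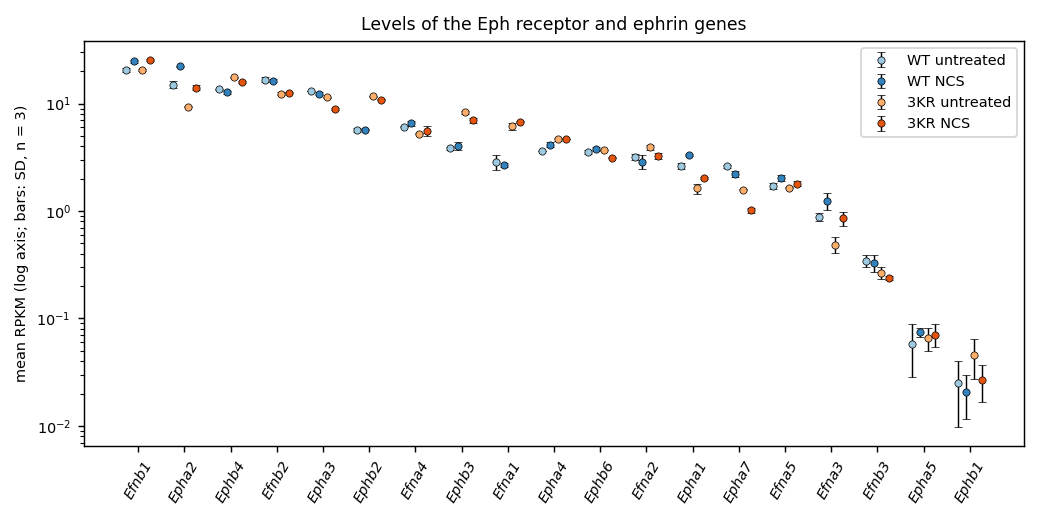
Mean RPKM of 19 Eph receptor and ephrin genes (horizontal axis, ordered by their mean level) in the 4 groups on a log axis, with bars for the SD over 3 samples. Efnb1 lies highest in all groups, at 20.6 to 25.5 RPKM, and Epha5 and Ephb1 lie under 0.1 RPKM.

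The receptor make-up differed between genotypes. Class A receptors, members or not, made up 58.2% ± 0.689 of the summed Eph receptor RPKM in untreated WT MEFs (SD, n = 3) and 41.1% ± 0.237 in untreated 3KR MEFs. After NCS they made up 62.8% ± 0.341 in WT and 45.5% ± 0.882 in 3KR MEFs, and no 3KR sample reached the share of any WT sample. The summed RPKM of class A receptors was 37.1 ± 1.39 in untreated WT and 28.8 ± 0.219 in untreated 3KR MEFs, and that of class B receptors 26.7 ± 0.596 and 41.4 ± 0.153. The sum over both classes was closer, 63.8 ± 1.83 RPKM in untreated WT and 70.2 ± 0.206 RPKM in untreated 3KR MEFs. Epha2 alone held 23.5% ± 1.15 of the receptor RPKM in untreated WT, 31.5% ± 0.702 in WT after NCS, 13.4% ± 0.139 in untreated 3KR and 20.8% ± 0.937 in 3KR MEFs after NCS. Ephb2 and Ephb3 moved the other way between genotypes, from 8.94% ± 0.186 to 16.7% ± 0.174 and from 6.01% ± 0.0433 to 11.8% ± 0.356 without treatment. No test was run on these shares, which are sums over genes tested singly below.

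**Figure D2:**
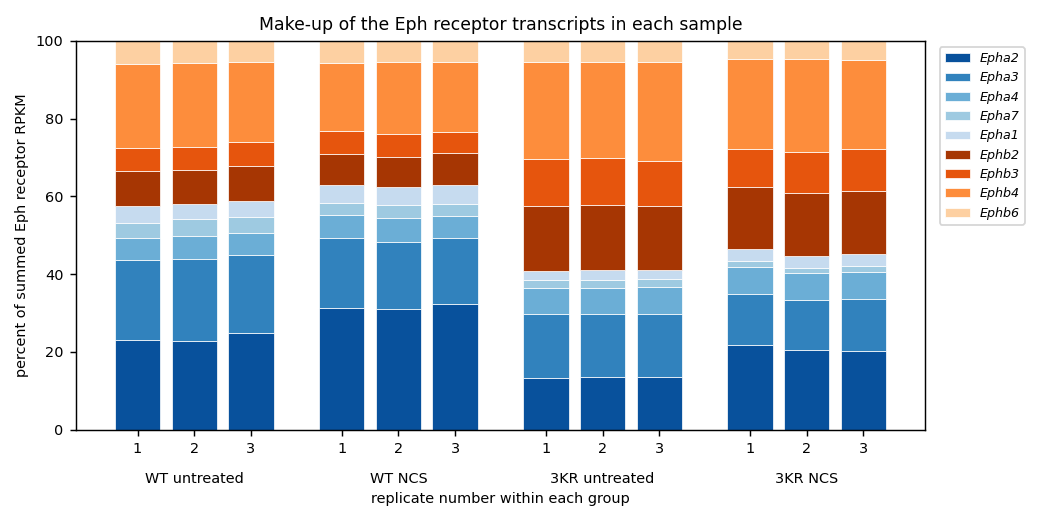
Share of the summed Eph receptor RPKM (percent, vertical axis) held by 9 receptors in each of the 12 samples, with class A receptors in blue and class B in orange. Epha5, Epha6, Epha8, Epha10 and Ephb1, all near 0, are not drawn. The blue part ends between 57.5% and 63.0% in WT samples and between 40.8% and 46.5% in 3KR samples.

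Between genotypes without treatment, the class B members were higher in 3KR MEFs and most class A members lower. Ephb6, a class B receptor outside the members, was not called (0.06, adjusted p = 0.463 in edgeR's quasi-likelihood test). Of the 10 members, 4 were higher in 3KR MEFs (Epha4, Ephb2, Ephb3 and Ephb4), 4 were lower (Epha2, Epha3, Epha7 and Efnb2) and 2 did not pass the test (Efna5 and Efnb1), at an adjusted p under 0.05 in edgeR's quasi-likelihood test. Among all 15327 genes tested, 45.7% passed it, 22.1% higher and 23.6% lower, so calls were common here for any gene. The members were chosen with earlier results of these data known. Their counts beside the share of all genes, here and below, are therefore no test of the members as a set. The median log2 fold change was -0.03 over the members and -0.00036 over all genes. After NCS the same comparison again gave 4 members higher, 4 lower and 2 not called, against 46.5% of all genes, 22.9% higher and 23.6% lower. The members called and their directions were those of untreated MEFs. Fitted without WT replicate 3, the same members were called in both treatments, and Efnb1 was called higher after NCS as well (0.08, adjusted p = 0.0329).

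**Figure D3:**
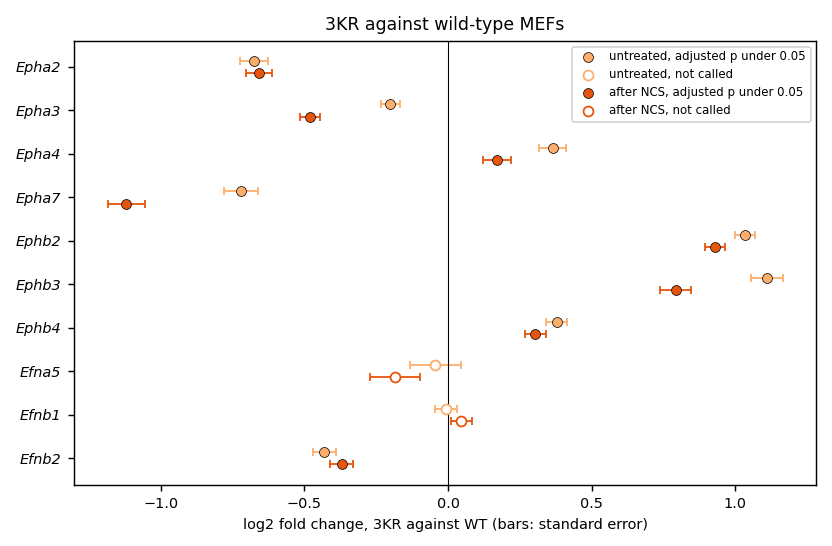
Log2 fold change of each member between 3KR and WT MEFs (horizontal axis; bars are standard errors of the edgeR fit on 12 samples), untreated and after NCS, with filled points for an adjusted p under 0.05. Ephb2, Ephb3, Ephb4 and Epha4 lie to the right of 0 in both treatments, and Epha2, Epha3, Epha7 and Efnb2 to the left.

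Epha2 is a class A receptor widely expressed on epithelial and mesenchymal cells. It had 2610, 2507 and 2898 normalized counts in the untreated WT samples and 1658, 1695 and 1686 in the untreated 3KR samples. All 3KR samples were lower than all WT samples. The log2 fold change was -0.67 (SE 0.05, adjusted p = 3.55e-11), or 0.626 times the WT level, and after NCS it was -0.66 (SE 0.05, adjusted p = 2.98e-11).

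Epha7, a class A receptor known from the patterning of the nervous system, had 935, 997 and 1009 normalized counts in untreated WT and 591, 605 and 594 in untreated 3KR samples, again without overlap. Its log2 fold change was -0.72 (SE 0.06, adjusted p = 5.86e-10). After NCS it was -1.12 (SE 0.07, adjusted p = 1.07e-12), or 0.460 times the WT level, the lowest ratio of the members in either comparison of genotypes.

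Epha3, a class A receptor of mesenchymal and neural tissue, had 4378, 4360 and 4382 normalized counts in untreated WT and 3857, 3840 and 3765 in untreated 3KR samples. The groups did not overlap, although the difference was small, with a log2 fold change of -0.20 (SE 0.03, adjusted p = 3.36e-05). After NCS the log2 fold change was -0.48 (SE 0.03, adjusted p = 5.99e-11).

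Epha4, which binds ephrins of both classes, went against the other class A receptors called. It had 1103, 1120 and 1113 normalized counts in untreated WT and 1412, 1397 and 1498 in untreated 3KR samples, so that every 3KR sample was higher. The log2 fold change was 0.36 (SE 0.05, adjusted p = 1.05e-06), and after NCS it was 0.17 (SE 0.05, adjusted p = 0.00531).

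Ephb2, a class B receptor with roles in axon guidance and in the positioning of cells in the gut, had 2750, 2606 and 2871 normalized counts in untreated WT and 5701, 5637 and 5582 in untreated 3KR samples. The groups were far apart, at 2.05 times the WT level in 3KR MEFs (log2 fold change 1.03, SE 0.03, adjusted p = 2.56e-17). After NCS the log2 fold change was 0.93 (SE 0.03, adjusted p = 2.49e-16).

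Ephb3, which acts together with Ephb2 in several tissues, had 964, 941 and 1006 normalized counts in untreated WT and 2143, 2144 and 2027 in untreated 3KR samples. The 3KR samples were all higher, at 2.16 times the WT level (log2 fold change 1.11, SE 0.05, adjusted p = 3.34e-14). After NCS the log2 fold change was 0.79 (SE 0.06, adjusted p = 2.73e-11).

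Ephb4, the receptor of veins that binds ephrin-B2, had 2442, 2375 and 2379 normalized counts in untreated WT and 3110, 3103 and 3180 in untreated 3KR samples. Its log2 fold change was smaller than those of Ephb2 and Ephb3, at 0.38 (SE 0.04, adjusted p = 6.88e-09), and 0.30 after NCS (SE 0.04, adjusted p = 3.26e-07). Ephb4 shares 33 exon bases (0.711% of its exons) with Zan on the other strand, which had 7 to 28 counts per sample.

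The class A ephrin Efna5, a guidance cue in the visual system, had 250, 255 and 284 normalized counts in untreated WT and 257, 252 and 257 in untreated 3KR samples. The groups overlapped, and the log2 fold change was -0.04 (SE 0.09, adjusted p = 0.724). After NCS every 3KR sample was lower than every WT sample, but the log2 fold change of -0.18 (SE 0.09, adjusted p = 0.0895) did not pass the test.

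The class B ephrins divided. Efnb2, the ephrin of arteries and a ligand of Ephb4, had 4231, 4219 and 4670 normalized counts in untreated WT and 3206, 3355 and 3210 in untreated 3KR samples, all lower. Its log2 fold change was -0.43 (SE 0.04, adjusted p = 4.95e-09), and -0.37 after NCS (SE 0.04, adjusted p = 7.24e-08). Efnb1, an X-linked gene subject to X inactivation and needed for borders in the developing face and skeleton, had 2651, 2672 and 2854 in untreated WT and 2761, 2728 and 2676 in untreated 3KR samples. Its groups overlapped in both treatments, with log2 fold changes of -0.0075 (SE 0.04, adjusted p = 0.895) and 0.05 (SE 0.04, adjusted p = 0.324). Without WT replicate 3, the Efnb1 value after NCS was 0.08 with an adjusted p of 0.0329.

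NCS raised Epha2 and Efnb1 and lowered Epha7 in both genotypes. Epha3 was also called lower in both, but its WT call was lost under 10 of 13 alternatives. The class B members were called lower in 3KR MEFs, where Ephb2 lost its call with any 3KR library left out. In WT MEFs no class B member was called in the main edgeR fit. In WT MEFs, Epha2, Epha4, Efna5 and Efnb1 rose and Epha3 and Epha7 fell, so 6 of 10 members passed the test, against 26.7% of all genes tested (14.3% higher and 12.4% lower). In 3KR MEFs, Epha2 and Efnb1 rose and Epha3, Epha7, Ephb2, Ephb3 and Ephb4 fell, 7 of 10 against 30.8% of all genes (15.8% higher and 15% lower). Because the members were chosen with earlier results known, these shares do not test them as a set. The median log2 fold change over the members was 0.04 in WT and -0.05 in 3KR MEFs, beside 0.0054 and -0.00079 over all genes. Without WT replicate 3, Ephb3 was also called higher in WT MEFs (0.16, adjusted p = 0.0209) and Epha3 was no longer called (-0.07, adjusted p = 0.0984).

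**Figure D4:**
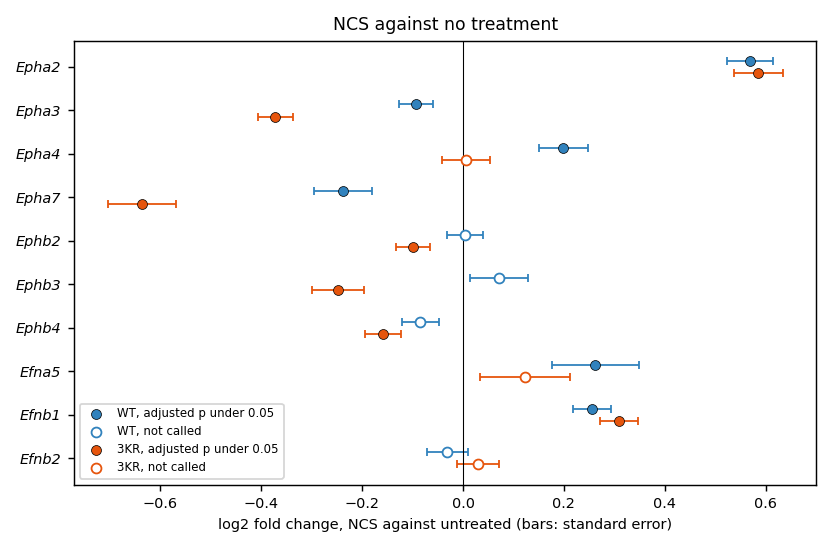
Log2 fold change of each member between NCS-treated and untreated MEFs (horizontal axis; bars are standard errors of the edgeR fit on 12 samples) in WT and 3KR MEFs, with filled points for an adjusted p under 0.05. Epha2 and Efnb1 lie to the right of 0 in both genotypes, while Epha3 and Epha7 lie farther to the left in 3KR than in WT MEFs.

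Epha2 rose to 3936, 3960 and 4021 normalized counts after NCS in WT samples and to 2667, 2474 and 2406 in 3KR samples. Every treated sample was higher than every untreated sample of its genotype. The log2 fold change was 0.57 in WT (SE 0.05, adjusted p = 1.45e-09) and 0.59 in 3KR MEFs (SE 0.05, adjusted p = 2.02e-09), with a difference of 0.02 between them (SE 0.07, adjusted p = 0.937). After NCS the 3KR samples were thus near the untreated WT level, which was 2672 ± 203 normalized counts, at 2516 ± 136 (SD, n = 3).

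Efnb1 had 3194, 3205 and 3387 normalized counts after NCS in WT samples and 3381, 3308 and 3415 in 3KR samples. All treated samples were higher than the untreated samples, and the genotypes overlapped. The log2 fold change was 0.26 in WT (SE 0.04, adjusted p = 1.39e-05) and 0.31 in 3KR MEFs (SE 0.04, adjusted p = 8.15e-07).

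Epha7 fell with NCS in both genotypes, to 794, 894 and 807 normalized counts in WT samples and to 396, 362 and 390 in 3KR samples. No treated sample reached the untreated samples of its genotype. The log2 fold change was -0.24 in WT (SE 0.06, adjusted p = 0.00332) and -0.64 in 3KR MEFs (SE 0.07, adjusted p = 1.17e-07).

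Epha3 had 4240, 4130 and 3965 normalized counts after NCS in WT samples and 2945, 2873 and 3022 in 3KR samples. In WT MEFs the groups did not overlap but lay close, with a log2 fold change of -0.09 (SE 0.03, adjusted p = 0.046), and the call was lost when any 1 WT library other than the first NCS replicate was left out (adjusted p = 0.0532 to 0.143). In 3KR MEFs the fall was larger, at -0.37 (SE 0.03, adjusted p = 1.56e-08).

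Epha4 had 1299, 1332 and 1206 normalized counts after NCS in WT samples, all above the untreated ones, with a log2 fold change of 0.20 (SE 0.05, adjusted p = 0.00328). In 3KR samples it had 1450, 1434 and 1434, which lay within the range of the untreated samples, with a log2 fold change of 0.0052 (SE 0.05, adjusted p = 0.95).

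None of the 3 class B members was called for NCS in WT MEFs in the main edgeR fit. Ephb2 had 2758, 2733 and 2786 normalized counts after NCS in WT samples, within the untreated range, and 5277, 5280 and 5224 in 3KR samples, all below the untreated ones. Its log2 fold change was 0.0046 in WT (SE 0.04, adjusted p = 0.945) and -0.10 in 3KR MEFs (SE 0.03, adjusted p = 0.0288), and the latter call was lost when any of the 6 3KR libraries was left out (adjusted p = 0.0546 to 0.102). Ephb3 had 1062, 1073 and 928 in WT samples, which overlapped with the untreated ones, and 1682, 1791 and 1838 in 3KR samples, which did not. Its log2 fold change was 0.07 in WT (SE 0.06, adjusted p = 0.412) and -0.25 in 3KR MEFs (SE 0.05, adjusted p = 0.000758), and without WT replicate 3 the WT value was 0.16 with an adjusted p of 0.0209. Ephb4 had 2204, 2345 and 2256 in WT and 2802, 2875 and 2730 in 3KR samples, with log2 fold changes of -0.08 (SE 0.04, adjusted p = 0.0963) and -0.16 (SE 0.04, adjusted p = 0.00163). Its treated WT samples were all below the untreated ones, and the WT value was called with the replicate number as a block (-0.09, adjusted p = 0.0487) and with at least 10 counts required in every sample (-0.10, adjusted p = 0.0409).

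Efna5 had 292, 328 and 325 normalized counts after NCS in WT and 290, 284 and 261 in 3KR samples. All treated samples were higher than the untreated ones of their genotype, with log2 fold changes of 0.26 in WT (SE 0.09, adjusted p = 0.0262) and 0.12 in 3KR MEFs (SE 0.09, adjusted p = 0.324). The WT call was lost without untreated replicate 1 or 2 or NCS replicate 2 or 3 (adjusted p = 0.0706 to 0.109). Efnb2 had 4274, 4124 and 4475 in WT and 3255, 3344 and 3360 in 3KR samples and overlapped with the untreated samples in both genotypes. Its log2 fold changes were -0.03 (SE 0.04, adjusted p = 0.63) and 0.03 (SE 0.04, adjusted p = 0.642).

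**Figure D5:**
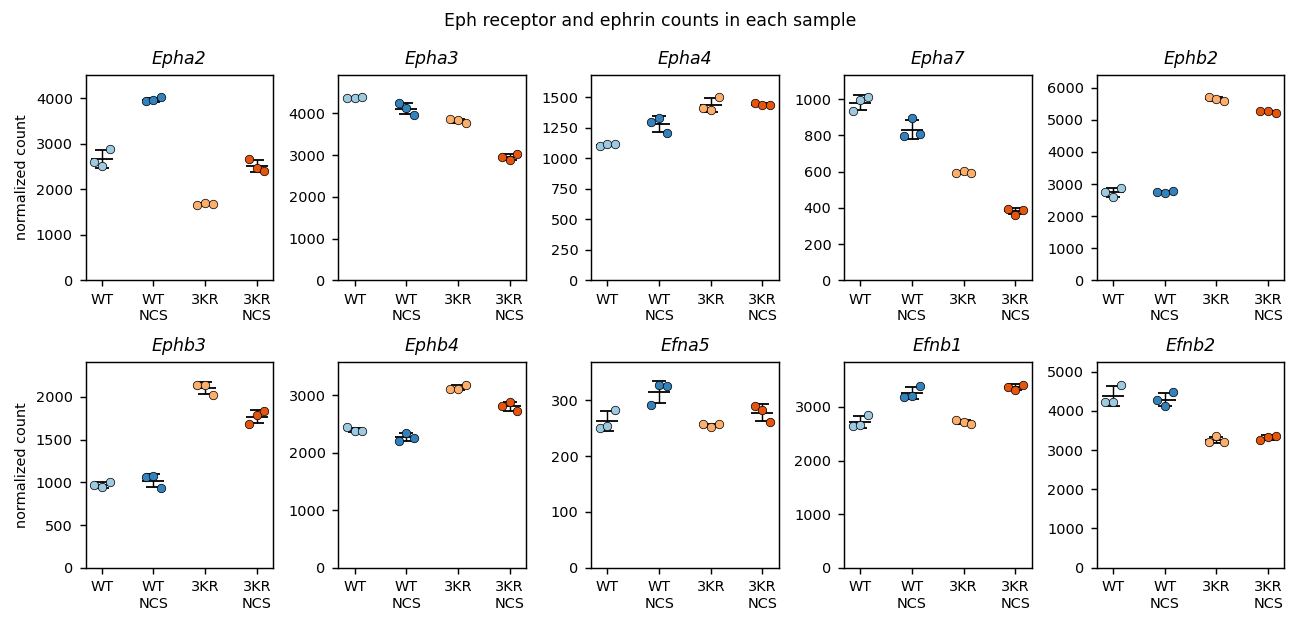
Normalized counts of the 10 members in each sample (points), with the mean and SD of each group of 3, on axes that start at 0. Epha2 rises with NCS in both genotypes from a lower level in 3KR, Ephb2 and Ephb3 lie near 2 times the WT level in untreated 3KR MEFs, and Efnb1 lies higher after NCS with the genotypes overlapping.

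Whether the response to NCS differed between genotypes was tested as the difference of the log2 fold changes, 3KR minus WT. It passed for 3 of 10 members, Epha3 at -0.28 (SE 0.05, adjusted p = 0.00115), Epha7 at -0.40 (SE 0.09, adjusted p = 0.0114) and Ephb3 at -0.32 (SE 0.08, adjusted p = 0.0199). Among all genes 3.73% passed, 1.86% with a more positive and 1.87% with a more negative response in 3KR MEFs. Here too the choice of members with earlier results known keeps this from testing them as a set. All 3 members called had the more negative response in 3KR MEFs. Epha3 and Epha7 kept their calls with each library left out in turn. Ephb3 lost it without any of 6 libraries, namely untreated WT replicate 2, NCS-treated WT replicates 1 and 2, untreated 3KR replicates 1 and 2 and NCS-treated 3KR replicate 1 (adjusted p = 0.0546 to 0.0789). Epha4 at -0.19 (SE 0.07, adjusted p = 0.125) and Ephb2 at -0.10 (SE 0.05, adjusted p = 0.299) did not pass. Without WT replicate 3 in both treatments 5 members passed, the further ones being Epha4 at -0.24 (adjusted p = 0.0113) and Ephb2 at -0.13 (adjusted p = 0.0273), and Ephb3 was at -0.41. That fit also called more of all genes, 1842 in place of 572. For Ephb4, Efna5, Efnb1 and Efnb2 the differences lay between -0.14 and 0.06, with adjusted p of 0.52 to 0.679.

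Of the other 12 genes of the family, 8 were tested and Epha6, Epha8, Epha10 and Ephb1 were removed by the filter. Efna1, a class A ephrin that binds Epha2, had 200 ± 33.6 normalized counts in untreated WT and 431 ± 29.5 in untreated 3KR MEFs (SD, n = 3), with log2 fold changes of 1.10 (SE 0.10, adjusted p = 1.47e-09) and, after NCS, 1.34 (SE 0.10, adjusted p = 6.33e-11). Epha1, another class A receptor, was lower in 3KR MEFs, with log2 fold changes of -0.69 (SE 0.08, adjusted p = 2.63e-07) and -0.70 (SE 0.08, adjusted p = 1.28e-07). It rose with NCS by 0.34 in WT and 0.33 in 3KR MEFs (adjusted p = 0.00187 and 0.00558). Epha1 shares 236 exon bases (6.01% of its exons) with Zyx on the other strand, which had 17539 to 28659 counts per sample, and the strand setting of the counting is not given in the sources used here. Efna3 was lower in 3KR MEFs (-0.85 untreated, adjusted p = 0.000828) and rose with NCS in both genotypes (0.51 and 0.81, adjusted p = 0.0264 and 0.0027). Efna4 was lower in 3KR MEFs by a smaller amount, at -0.22 and, after NCS, -0.23. Efna2 was higher in untreated 3KR MEFs (0.30, adjusted p = 0.0194). Ephb6, a class B receptor without kinase activity, was lower in 3KR than in WT MEFs after NCS (-0.26, SE 0.06, adjusted p = 0.00151), against the direction of the class B members. It fell with NCS in 3KR MEFs (-0.24, adjusted p = 0.00569), and its difference of responses was -0.32 (SE 0.09, adjusted p = 0.0417). Epha5 and Efnb3 passed no test.

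The family was also counted by role. In untreated 3KR MEFs (45.7% of all genes called), 4 of 6 class A receptors tested were lower and 1 was higher (median log2 fold change -0.44), while of 4 class B receptors 3 were higher and 0 lower, with a median of 0.71 (Ephb6, adjusted p = 0.463, was the class B receptor not called). After NCS (46.5% of all genes called), 4 class A receptors were lower and 1 higher in 3KR MEFs, with a median of -0.57, and 3 class B receptors were higher and 1, Ephb6, lower, with a median of 0.55. With NCS in 3KR MEFs all 4 class B receptors tested fell, with a median of -0.20 and 30.8% of all genes called. In WT MEFs 0 of 4 were called in the main edgeR fit (1 at an unadjusted p under 0.05), with 26.7% of all genes called. Ephb4 (lower) and Ephb3 (higher) were called there in some of the alternative fits. Class A ephrins had 2 higher and 2 lower of 5 in untreated 3KR MEFs.

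Downstream of the receptors, a list of 63 genes for Eph and ephrin signalling was examined, of which 60 were tested. In untreated 3KR MEFs 15 were higher and 27 lower than in WT, with a median log2 fold change of -0.07, beside the 45.7% called among all genes. Among exchange factors for GTPases, Kalrn (-0.55, adjusted p = 1.19e-08) and Vav2 (-0.53, adjusted p = 1.2e-08) had the lowest p. Both chimaerins, which switch Rac off below Epha4, were lower, Chn1 at -1.17 (adjusted p = 1.28e-09) and Chn2 at -1.10 (adjusted p = 5.49e-05). The adaptors Grb2 (-0.27) and Grb10 (-0.14), the kinases Limk2 (-0.59) and Ptk2 (-0.35) and the phosphatases Ptprf (-0.30) and Inppl1 (-0.24) were lower too. Of the GTPases Hras was lower (-0.24) and Rras higher (0.13), and the proteins that can join the tails of class B ephrins or the polarity complex, Rgs3 and Pard6a, were both higher (0.41). The proteases with the lowest p were Adam33 at 1.63 (adjusted p = 8.75e-16) and Mmp2 at -0.74 (adjusted p = 1.61e-15).

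After NCS, 11 genes of the signalling list were higher and 29 lower in 3KR than in WT MEFs, beside 46.5% called among all genes. NCS raised 17 and lowered 8 in WT MEFs, where the lowest p were those of Kalrn (-0.49), Mmp2 (0.27) and Hras (0.26), and raised 16 and lowered 11 in 3KR MEFs, where 26.7% and 30.8% of all genes were called. The difference of responses passed for 1 of 60, a share no larger than the 3.73% of all genes, namely the adaptor Nck2 at -0.33 (SE 0.08, adjusted p = 0.0156). The next genes by p, Grb10 (adjusted p = 0.0613) and Arhgef15 (adjusted p = 0.078), did not pass.

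For the 4 members with a span of at least 1, the genes outside the family with the most similar pattern were found as those with the smallest root-mean-square difference in log2 CPM over the 12 samples, each gene centred on its own mean. For Epha2 these were Maff (0.0605), Mast4 (0.0677) and Vegfa (0.0729). Ephb2 was closest to Sfrp1 (0.057), Col6a1 (0.0572) and Srpx2 (0.0632), and Ephb3 to Sfrp1 (0.0587), Isoc1 (0.072) and Igsf10 (0.0758). Epha7 had less similar neighbours, Rab38 (0.113), Pde3a (0.116) and Tmtc1 (0.126). Sfrp1, a secreted inhibitor of Wnt signalling, was nearest to both class B receptors, with a log2 fold change of 1.12 between untreated genotypes.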

How the data were processed

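RNA-seq of 12 MEF samples was used. The authors made stranded mRNA libraries and deposited 1 file of raw counts per sample, the reads assigned to each Ensembl gene, neither normalized nor filtered. The submitters' processing notes name TopHat, HTSeq, DESeq and the mm9 build. The annotation release and the strand setting are not given in the sources used here, so a gene can hold reads of one that overlaps on the other strand. Symbols, positions and exon lengths were read from GENCODE M21 (GRCm38), which holds 32919 of the 37991 gene IDs. In no sample did these carry less than 99.4% of the counts, and no coordinates were converted between builds.

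Groups were taken from the sample labels. Counts were filtered with filterByExpr, normalized by TMM and fitted in edgeR (version 4.0.16, R version 4.3.3) for its quasi-likelihood F test. This main fit had 1 coefficient per group, no replicate block and all 12 samples. The p-values were two-sided and adjusted by the Benjamini-Hochberg method over 15327 genes, with a threshold of 0.05. Standard errors are the absolute log2 fold change divided by the square root of F. For normalized counts, each sample was scaled by its DESeq2 size factor (version 1.42.0), and RPKM used TMM library sizes. Total counts were 33203757 to 45279321 per sample.

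The members and all gene lists were chosen with earlier results of these data known. The text names all genes of the family. From the signalling list it names the 2 lowest p per role between untreated genotypes, and the 3 lowest p for NCS in WT MEFs and for the difference of responses. Similar patterns were sought for members with a span of at least 1, with 3 genes each.

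Alternatives were DESeq2 size factors, the Wald test of DESeq2, a minimum of 10 counts in every sample or no filter, a fit of the compared samples only, a replicate block, leaving out single samples, WT replicate 3 left out in both treatments, and reads not divided by length. WT replicate 3 was left out because its counts stood apart in these same data. Its removal together with the block was chosen after seeing the data. The scripts were tested on simulated counts. Proteins were not analysed here.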

Additional observations from a re-analysis of the deposited data

Results flagged for a closer look

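For 3 members the response to NCS differed between the genotypes by a test of the difference itself, edgeR's quasi-likelihood test with Benjamini-Hochberg adjustment over all genes. The difference, 3KR minus WT on the log2 scale, was -0.40 for Epha7, -0.32 for Ephb3 and -0.28 for Epha3. Epha7 and Epha3 fell with NCS in both genotypes, Epha7 by 0.64 in 3KR and 0.24 in WT MEFs and Epha3 by 0.37 and 0.09, and the 3 treated 3KR samples were the lowest of all 12 for both genes. Ephb3 moved by 0.07 in WT MEFs, which was not called, and fell by 0.25 in 3KR MEFs. The 3KR samples differed from the WT samples in sex-linked genes and in Schwann and macrophage markers too, and their part in these differences was not tested.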

How the results depend on the processing

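Of 50 fold changes of the members (10 genes in 5 comparisons) 32 were called, and 28 of these kept call and direction under every alternative run. The exceptions were Epha3 and Efna5 with NCS in WT, Ephb2 with NCS in 3KR and the difference of responses of Ephb3, which lost their calls under 10 of 13, 7 of 13, 6 of 12 and 6 of 19 alternatives. Ephb4 with NCS in WT was called with at least 10 counts in every sample (adjusted p = 0.0409) and with the replicate block (0.0487), and the difference of Epha4 without WT NCS replicate 3 (0.0346). Members called for the difference of responses numbered 3, and 5 without WT replicate 3 in both treatments, with or without the replicate block. The number of all genes called for it was 572, and 1379 with the replicate block, 1842 without WT replicate 3 in both treatments and 345 to 1159 with single libraries left out. The cause was not tested.

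No called fold change reversed. Of those not called, Efna5 between untreated genotypes was 0.019 without WT replicate 3 in both treatments, and -0.080 to 0.013 with single libraries left out. Efnb1 there was 0.0037 without a filter, 0.033 without WT replicate 3 and -0.027 to 0.027 with libraries left out. Ephb2 with NCS in WT was -0.0092 with at least 10 counts, -0.0099 in the samples compared alone and -0.031 to 0.038 with libraries left out. Efnb2 with NCS in WT ranged from -0.063 to 0.019 and Epha4 with NCS in 3KR from -0.015 to 0.038, with libraries left out, and Epha4 was -0.0015 without a filter. The difference of Epha2 was -0.038 without WT replicate 3, -0.040 with the replicate block as well, and -0.045 to 0.060 with libraries left out.

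Groups share replicate numbers, but the labels do not say that a number marks 1 culture. Over all genes tested, deviations from the group means correlated by 0.05 to 0.10 between same-numbered WT samples and by 0.000644 to 0.0164 in 3KR. Over 9602 genes with a mean log2 CPM of 3 or more these were 0.234 to 0.468 and 0.00102 to 0.0502, and the difference of WT replicates 1 and 2 correlated by 0.0214. The replicate block was kept as an alternative: with it 8, 8, 7, 7 and 3 members were called in the 5 comparisons, in place of 8, 8, 6, 7 and 3. All genes called with the block numbered 6673, 7044, 5239, 5801 and 1379, in place of 7007, 7131, 4090, 4721 and 572. Without division by length, class A receptors held 59.1% and 40.6% of the reads in untreated WT and 3KR MEFs. Ephb2 then held 16.9% and 29.3%, and Epha2 16.5% and 8.73%.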

Other observations

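Of the family genes removed by the filter, Epha6, Epha8 and Epha10 had 0 to 3 counts in every sample. Ephb1, a class B receptor of the nervous system, had 2 to 17 counts per sample in all 4 groups. These genes were therefore at or near the limit of what the depth could show, and no comparison of them was made.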
